A study of Homo sapiens with 4 samples.

Results

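Collagens are the structural proteins of the extracellular matrix, and the genes described here encode their α chains. Members were taken by symbol, as COL followed by a number, the letter A and a number, among the array probe sets that the platform annotation maps to a single gene. Where a gene had several such probe sets, the one with the highest 4-array mean stood for it. This gave 43 collagen chain genes among 18417 genes measured, while COL17A1 was not analysed here. The RNA came from cells labelled PC3, an established line from a prostate cancer that had spread to bone. PC3-SCR cells (VC-PC3 in the study) carried the empty pBABE vector, and PC3-PDEF cells over-expressed PDEF, the ETS transcription factor encoded by SPDEF, with 2 arrays in each group. The methods describe the PDEF cells as stably transfected, and whether they are 1 clone or a pool is not given in the sources used here. All cells were grown in DMEM/F12 with serum. The sources do not say whether a group's arrays stem from independent cultures, and p-values therefore cover the array-to-array spread alone, which may be technical. Signals are given as log2 values, so a difference of 1 is a 2-fold change, and the small number of arrays limits the precision. Below, a gene was called lower or higher in PC3-PDEF, or is said to have fallen or risen, at an adjusted p under 0.05 in a limma fit over all genes.

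Collagen chains fold in threes into a rope-like helix of Gly-X-Y repeats, and the way the helices assemble defines the classes. Fibrillar collagens such as types I, III and V form the fibrils of stroma and bone, type IV forms the sheet-like network of basement membranes, and type VI forms beaded filaments that link cells and basement membranes to the surrounding matrix. FACIT collagens sit on the surface of fibrils, and transmembrane collagens are held in the plasma membrane. In tumours most fibrillar collagen is known to come from stromal cells, while carcinoma cells can make basement membrane and pericellular collagens themselves.

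The identity of the cells was examined first. SPDEF rose by 0.77 log2 units (standard error 0.088, limma adjusted p = 0.000563), only a 1.7-fold higher level. Its signals were 6.85 and 6.73 in PC3-PDEF against 5.99 and 6.06 in PC3-SCR. CTNNA1 and STAT3, which are known to be homozygously deleted in PC3 cells, gave signals of 9.76 and 9.86 and of 9.06 and 9.05 on the PC3-PDEF arrays, against 4.07 to 4.77 on the PC3-SCR arrays. The arrays labelled PC3-PDEF therefore go against their label at these loci. Both arrays of the group are affected, so no comparison can be made without them. A difference of the PC3-PDEF cells that is due to PDEF and a difference of cell identity cannot be told apart here, for any collagen chain. The epithelial keratin genes KRT8 and KRT18 lay between 8.88 and 9.91 on the 4 arrays. KRT8 fell by 0.635 (limma adjusted p = 0.000852) and KRT18 was not called (-0.25, adjusted p = 0.0882). EPCAM, another epithelial gene, had 7.81 and 7.74 in PC3-SCR and 5.65 and 6.53 in PC3-PDEF. CDH1, the E-cadherin gene, had 5.43 to 5.62. As a gauge of background, the highest of 341 olfactory receptor genes had log2 signals of 5.94 and 6.01 on the PC3-SCR arrays and of 5.65 and 5.75 on the PC3-PDEF arrays. CDH1 lay below this gauge on every array, and the SPDEF signals of PC3-SCR lay just above it.

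Markers of other cell types that make collagen were near background, with few exceptions. Of 9 fibroblast markers, 8 were in neither group above the gauge, with a median log2 fold change of -0.255 over the 9. Of the 9, 3 fell (33.3%) and 1 rose (11.1%), beside 24.0% and 26.7% of all genes. The marker that rose was FBLN1, the fibulin-1 gene, with signals of 7.10 and 7.06 against 7.92 and 7.90. The summed linear signal of all 9 was 267 to 307 in PC3-SCR and 351 to 361 in PC3-PDEF, and that of the 8 others without FBLN1 was 133 to 170 and 112 to 119. LUM, the lumican gene, fell by 1.34 (adjusted p = 0.000559, and 0.0617 or 0.0529 without 1 of the PC3-PDEF arrays), while DCN and PDGFRA lay at 2.78 to 3.79. Of 6 endothelial markers, 5 were in neither group above the gauge, and KDR, a VEGF receptor gene, went from 6.95 and 7.15 to 4.78 and 4.87. Their summed signal was 254 to 299 in PC3-SCR and 142 to 143 in PC3-PDEF. The 6 smooth muscle markers summed to 281 to 290 and to 263 to 283, with 2 of them, ACTA2 and DES, above the gauge on all arrays. None of the 5 chondrocyte and osteoblast and 5 leukocyte markers measured was above the gauge on both arrays of a group, and of 4 kidney epithelium markers PAX8 was above it in PC3-SCR alone. The part of KDR, FBLN1 and the other markers in the collagen differences was not tested.

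Collagen chains were mostly lower or not called in PC3-PDEF, and the largest falls were in chains of type VI, XII, IV, XIII and I collagen. Of the 43 chains, 18 (41.9%) fell and 2 (4.65%) rose, whereas 24.0% of all genes fell and 26.7% rose. The 18 falls include 7, and the 2 rises 1, in chains above the background gauge in neither group. At least 2-fold falls were found for 7 chains (16.3%), against 6.07% of all genes, and a rise of that size for 1 chain (2.33%), against 8.67%. The median log2 fold change was -0.165 over the chains and -0.05 over all genes. Signal level matters for such shares, so genes were divided at the median of their 4-array means. Of the 14 chains above it, 9 fell (64.3%) and 0 rose, against 29.2% and 38.8% of the genes above it. Of the 29 chains not above it, 9 fell (31.0%) and 2 rose (6.90%), against 18.8% and 14.6% of such genes. No overlap between the groups was seen for 29 chains (67.4%), with PC3-PDEF lower in 24 and higher in 5, beside 74.7% of all genes. Summed over the 43 chains on the linear scale, the signal was 6672 and 6832 on the PC3-SCR arrays and 2682 and 2704 on the PC3-PDEF arrays. COL6A1, COL6A2 and COL6A3 carried most of this drop, with sums of 3793 to 3917 and 590 to 618, while the other 40 chains summed to 2879 to 2915 and 2064 to 2114. Such sums add probe sets whose levels are not comparable and weight the bright ones. In bulk RNA, fewer cells that make a transcript and less of it per cell cannot be told apart.

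The number of small falls depended on single arrays. Without PC3-SCR replicate 1, PC3-SCR replicate 2, PC3-PDEF replicate 1 or PC3-PDEF replicate 2, the number of the 18 chains that were still lower was 12, 10, 8 and 8. The 7 chains that fell at least 2-fold did so in each of these fits.

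**Figure D1:**
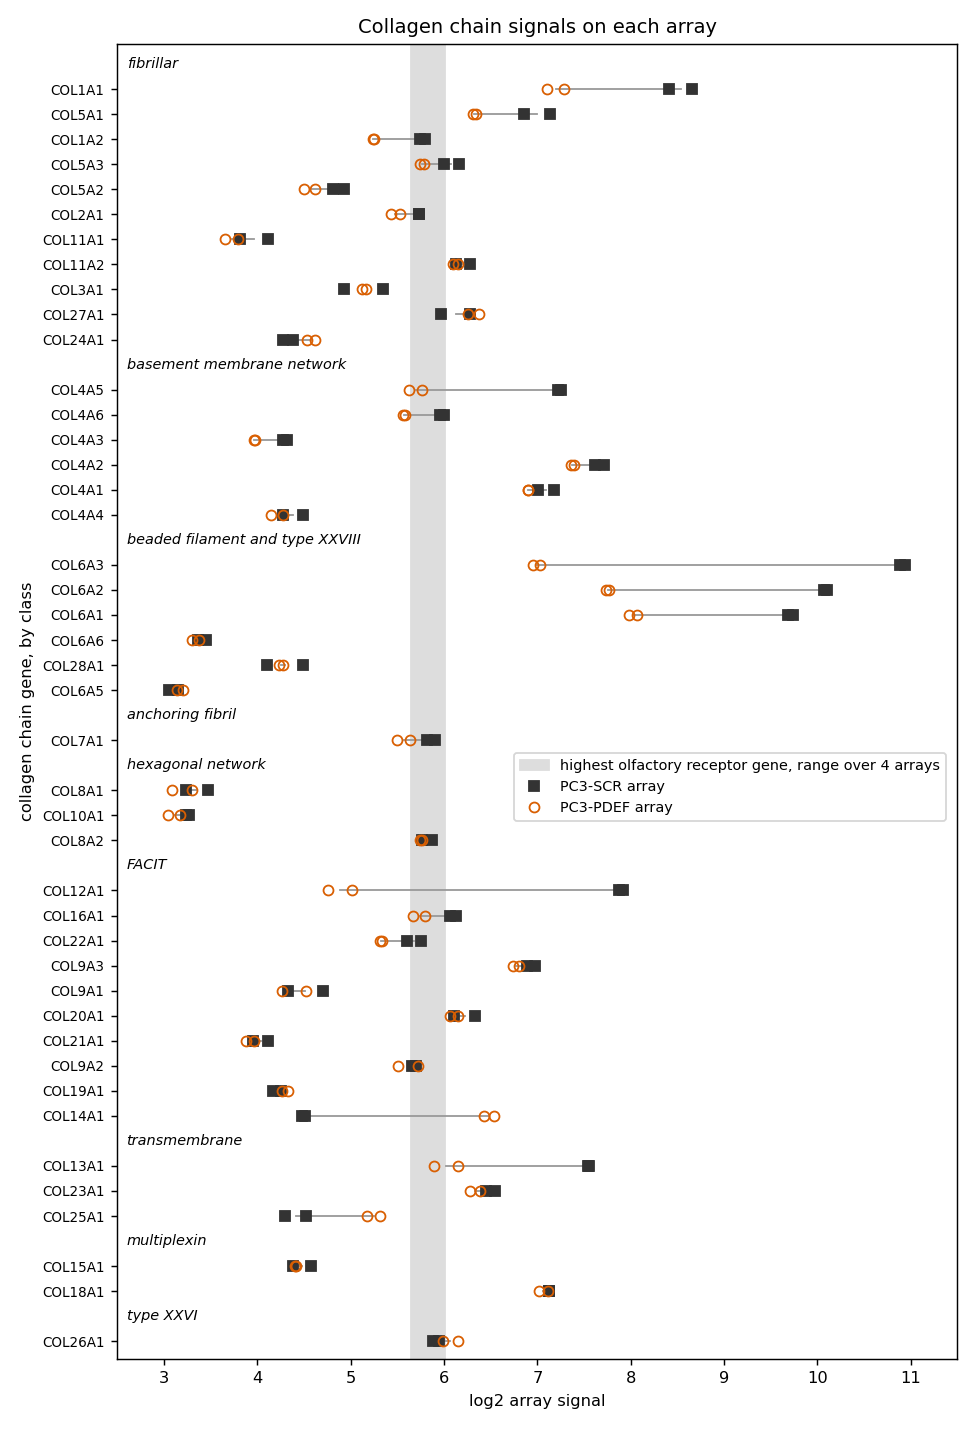
Log2 array signal (horizontal axis) of the 43 collagen chain genes (vertical axis, by class) on the PC3-SCR arrays (squares) and PC3-PDEF arrays (circles), with a line between the group means. The grey band spans 5.65 to 6.01, the highest olfactory receptor gene on each array. COL6A3 moved from 10.94 and 10.89 to 6.95 and 7.03, and COL14A1 from 4.48 and 4.51 to 6.54 and 6.43.

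Relative to the highest olfactory receptor gene, 14 chains were above background on all 4 arrays and 22 in neither group. Another 4 were above it only on both PC3-SCR arrays and 3 only on both PC3-PDEF arrays. Of all 18417 genes, 8935 were above it on all arrays, 7633 in neither group, 471 only in PC3-SCR and 1378 only in PC3-PDEF. The gauge itself was lower on the PC3-PDEF arrays. Of the 3 chains, COL26A1 was not called. Nor was COL8A2, with 5.76 and 5.87 in PC3-SCR against 5.74 and 5.77 in PC3-PDEF. Fold changes of chains that were not above the gauge in a group are not exact in size. Of the 22, 7 fell (31.8%) and 1 rose (4.55%), beside 17.6% and 8.0% of all genes above the gauge in neither group. The 7 were COL1A2, COL2A1, COL4A3, COL4A6, COL5A2, COL7A1 and COL22A1, and COL25A1 rose. Against the lower mark of the 95th percentile of the olfactory receptor genes, 28 chains were above it on all 4 arrays, 3 only in PC3-PDEF and 12 in neither group.

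The largest fall was in a chain of type VI collagen, whose basic unit is built from the chains of COL6A1, COL6A2 and COL6A3. COL6A3, which encodes the longest of these chains, had log2 signals of 10.94 and 10.89 in PC3-SCR and of 6.95 and 7.03 in PC3-PDEF. It fell by 3.92 log2 units (standard error 0.084, adjusted p = 2.66e-06), a 15.2-fold lower level. COL6A2 lay at 10.10 and 10.07 in PC3-SCR and at 7.74 and 7.77 in PC3-PDEF. The 3 genes were well above the background gauge on every array, and in none did the groups overlap. COL6A2 fell by 2.33 (standard error 0.080, adjusted p = 5.65e-06), a 5.03-fold lower level. COL6A1 went from 9.74 and 9.68 to 7.98 and 8.07, and fell by 1.69 (standard error 0.085, adjusted p = 2.04e-05), a 3.22-fold lower level. COL6A5 and COL6A6, which encode alternative chains of type VI collagen, were near background. COL6A5 had signals of 3.05 to 3.21 and COL6A6 of 3.30 to 3.45, and neither differed beyond the spread (log2 fold changes 0.075 and -0.07, adjusted p = 0.506 and 0.532). COL28A1, which encodes a related chain of type XXVIII collagen, had a change of -0.04.

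The falls in signal within type VI collagen were unequal, and whether the RNA amounts fell unequally was not tested. Probe sets cannot be compared in level, but the difference between 2 of them on the same array can be followed across arrays. That between COL6A3 and COL6A1 was 1.20 and 1.21 in PC3-SCR and -1.03 and -1.04 in PC3-PDEF, a shift of -2.24 on the log2 scale (standard error 0.0071). Unlike those of the fold changes, the standard errors of such shifts come from the arrays alone, without limma's prior. With 2 arrays per group and rounded signals they are not exact and can be too small. The COL6A3 signal thus dropped further than that of COL6A1 on every PC3-PDEF array. Between COL6A2 and COL6A1 the shift was -0.65 (standard error 0.034). Of 8 such pairs of partner chains compared, 7 showed no overlap between groups. In a two-sided exact permutation test this gives p = 0.333, the smallest that 2 arrays against 2 allow, and 0.381 after Benjamini-Hochberg adjustment over the 8. Non-overlap was common, with 74.7% of all single genes, and its share among other pairs of genes was not computed. Whether the 7 of 8 is particular to these pairs can therefore not be said. COL6A1 and COL6A2 lie side by side on chromosome 21, near COL18A1, which encodes the precursor of endostatin. COL18A1 had signals of 7.13 and 7.13 against 7.11 and 7.02 (difference -0.065, standard error 0.083, adjusted p = 0.552).

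**Figure D2:**
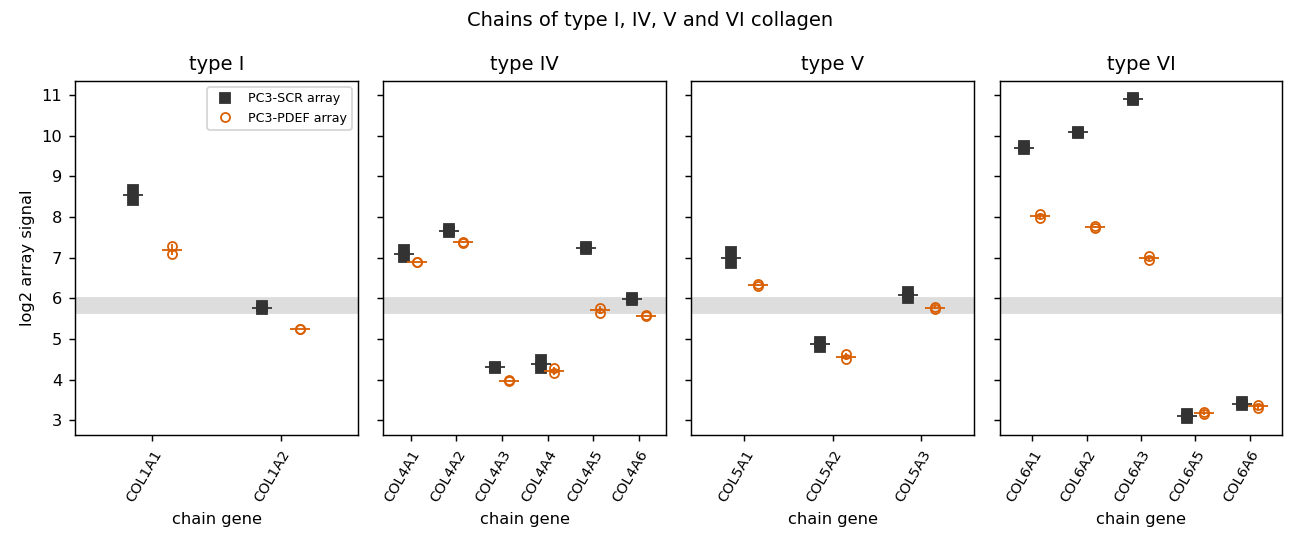
Log2 array signal (vertical axis) of each chain gene (horizontal axis) of type I, IV, V and VI collagen on the PC3-SCR (squares) and PC3-PDEF arrays (circles), where lines mark means and bars the SD (n = 2). The grey band marks the highest olfactory receptor genes, 5.65 to 6.01. The log2 fold changes were -1.69 for COL6A1, -2.33 for COL6A2, -3.92 for COL6A3 and -0.195 for COL4A1.

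In type IV collagen the falls differed from chain to chain. Of the 6 genes, 4 were lower (66.7%) and 0 higher, beside 24.0% and 26.7% of all genes. Among the lower ones, COL4A3 and COL4A6 were above the background gauge in neither group. Its genes form head-to-head pairs that are read outward from a shared stretch of DNA, and the chains of COL4A1 and COL4A2 make up the common network of basement membranes. COL4A1 had signals of 7.18 and 7.01 in PC3-SCR and of 6.90 on both PC3-PDEF arrays (log2 fold change -0.195, standard error 0.093, adjusted p = 0.128). Its partner COL4A2 had 7.71 and 7.62 against 7.39 and 7.36, and fell by 0.29 (standard error 0.084, adjusted p = 0.0278). The change of COL4A1 passed the test after quantile normalization (adjusted p = 0.0299), and that of COL4A2 did not pass it in any fit without 1 array (adjusted p from 0.0593 to 0.128). COL4A5, whose chain is altered in X-linked Alport syndrome, had 7.22 and 7.25 in PC3-SCR and 5.77 and 5.63 in PC3-PDEF. It fell by 1.54 (standard error 0.089, adjusted p = 3.35e-05), a 2.90-fold lower level, and the PC3-PDEF signals were at the background gauge.

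COL4A6, the head-to-head partner of COL4A5, fell by 0.41 (standard error 0.080, adjusted p = 0.00585), from 6.0 and 5.96 to 5.58 and 5.56. The difference between COL4A5 and COL4A6 on the same array shifted by -1.12 (standard error 0.070), that between COL4A2 and COL4A1 by -0.095 (standard error 0.043) and that between COL4A3 and COL4A4 by -0.16 (standard error 0.146), the 1 pair of the 8 in which the groups overlapped. The COL4A5 signal thus dropped further than that of COL4A6, whose own signals were near background. COL4A3, which encodes the Goodpasture antigen, had signals of 3.96 to 4.32 on all arrays and fell by 0.33 (adjusted p = 0.0144). COL4A4, its partner, had 4.15 to 4.49 and was not called (log2 fold change -0.17, adjusted p = 0.228). Without 1 array, the adjusted p of COL4A3 was 0.054 to 0.0778, and without 1 of the PC3-PDEF arrays that of COL4A6 was 0.0517 or 0.0575.

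The DNA before the start sites of some of the chains that carry these results is given here from RefSeq (GRCh38.p14). Such a window was listed for 31 of the 43 chains, but not for COL6A1 and COL1A1. That of COL13A1 is not shown. PDEF is known to bind cores of the letters GGAT as well as the GGAA of other ETS factors. Shown are the 250 bases before the start of COL6A3, COL12A1 and COL6A2, the chains with the largest falls, and of COL4A5, and the whole stretch between the starts of COL4A1 and COL4A2. Capitals mark GGAA and GGAT on either strand, so TTCC and ATCC are the same cores read from the other strand.
COL6A3 (chr2:237414165-237414414, minus strand): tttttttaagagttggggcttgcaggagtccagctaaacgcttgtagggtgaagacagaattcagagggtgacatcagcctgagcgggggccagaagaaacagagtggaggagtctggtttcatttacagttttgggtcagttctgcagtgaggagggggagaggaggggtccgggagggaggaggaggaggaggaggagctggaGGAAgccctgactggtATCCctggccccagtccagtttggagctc
COL12A1 (chr6:75206054-75206303, minus strand): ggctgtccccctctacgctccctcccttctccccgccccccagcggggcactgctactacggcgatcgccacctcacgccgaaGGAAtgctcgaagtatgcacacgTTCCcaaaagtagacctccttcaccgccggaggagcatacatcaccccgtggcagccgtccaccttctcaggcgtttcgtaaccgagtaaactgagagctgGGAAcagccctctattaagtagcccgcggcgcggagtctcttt
COL6A2 (chr21:46097862-46098111, plus strand): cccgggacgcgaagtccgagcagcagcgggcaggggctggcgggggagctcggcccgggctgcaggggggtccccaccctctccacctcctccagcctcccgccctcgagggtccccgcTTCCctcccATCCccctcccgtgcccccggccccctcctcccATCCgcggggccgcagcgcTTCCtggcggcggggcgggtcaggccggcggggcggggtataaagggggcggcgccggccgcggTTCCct
COL4A5 (chrX:108439588-108439837, plus strand): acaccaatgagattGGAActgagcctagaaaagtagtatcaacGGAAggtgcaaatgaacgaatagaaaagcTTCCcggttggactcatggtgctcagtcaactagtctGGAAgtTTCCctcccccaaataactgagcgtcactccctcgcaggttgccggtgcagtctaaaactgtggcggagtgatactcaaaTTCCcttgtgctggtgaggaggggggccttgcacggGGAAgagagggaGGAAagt
COL4A1 and COL4A2 (chr13:110307158-110307283, plus strand): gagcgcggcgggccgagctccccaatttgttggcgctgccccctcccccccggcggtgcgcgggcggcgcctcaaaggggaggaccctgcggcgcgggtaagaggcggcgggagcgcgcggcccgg

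The spacer between the starts of COL4A1 and COL4A2 is 126 bases long and holds neither core. It is shorter than the windows of the other chains shown, so its count cannot be set beside theirs. The full window of COL4A1 holds GGAA 0 times and GGAT 2 times, and that of COL4A2 holds GGAA 2 times and GGAT 0 times. Between the listed starts of COL4A6 and COL4A5 lie 379 bases. The window of COL4A5 holds GGAA 8 times and GGAT 0 times, that of COL6A3 holds each of them 1 time, that of COL6A2 holds GGAA 3 times and GGAT 2 times, and that of COL12A1 holds GGAA 3 times and GGAT 0 times. Such short cores are common. GGAA was found in 27 of the 31 chain windows (87.1%) and in 92.8% of the windows of 27305 genes, and GGAT in 24 (77.4%) and in 71.1%. The TEAD motif GGAATG, which overlaps GGAA, was found in the window of COL12A1 alone among the 31 and in 12% of all windows, and the AP-1 motif TGANTCA in 0 of the 31 and in 6.57% of all windows. The GC box GGGCGG was found in 17 chain windows (54.8%) and in 42.2% of all. Both strands were searched, and a match is a description of the letters, not a bound site.

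Among the fibrillar collagens COL1A1 had the largest change. Of the 11 genes, 6 fell (54.5%) and 0 rose, while 5 were not called, with a median log2 fold change of -0.25, beside 24.0% lower, 26.7% higher and a median of -0.05 over all genes. COL1A1, which encodes the main chain of type I collagen, had signals of 8.66 and 8.41 in PC3-SCR and of 7.29 and 7.10 in PC3-PDEF. It fell by 1.34 (standard error 0.119, adjusted p = 0.000183), a 2.53-fold lower level. COL1A2, its partner in the type I trimer, fell by 0.53 (standard error 0.081, adjusted p = 0.00204), from 5.74 and 5.80 to 5.25 and 5.24, none of them above the background gauge. The array-wise difference between COL1A1 and COL1A2 shifted by -0.81 (standard error 0.179). COL3A1, which encodes the chain of type III collagen in soft tissues, had 4.93 and 5.35 against 5.17 and 5.12 and did not pass the test (log2 fold change 0.005, adjusted p = 0.979).

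Type V collagen controls the width of fibrils. COL5A1 had 7.14 and 6.86 in PC3-SCR and 6.31 and 6.34 in PC3-PDEF, and fell by 0.68 (standard error 0.112, adjusted p = 0.00288). COL5A2, with signals of 4.5 to 4.93, fell by 0.31 (adjusted p = 0.0316), and COL5A3, with 5.74 to 6.16, fell by 0.32 (adjusted p = 0.0295). Without 1 of the PC3-PDEF arrays, COL5A1 had an adjusted p of 0.0904 or 0.0872. COL5A2 passed the test in no fit without 1 array (adjusted p from 0.0823 to 0.174), and COL5A3 only in that without PC3-SCR replicate 1. COL2A1, the cartilage collagen gene, fell by 0.25 (adjusted p = 0.0476) at signals of 5.43 to 5.73, and this too did not pass in any fit without 1 array. COL11A2 and COL27A1 were above the gauge on every array and were not called (-0.08 with adjusted p = 0.501, and 0.195 with adjusted p = 0.234). Nor were the dim COL11A1 (-0.245, adjusted p = 0.143) and COL24A1 (0.245, adjusted p = 0.0583, or 0.0269 after quantile normalization).

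Among the FACIT collagens COL12A1 fell and COL14A1 rose. Of the 10 genes, 3 fell (30.0%), near the 24.0% of all genes, 1 rose and 6 were not called. COL12A1, which encodes a fibril-associated chain of dense connective tissue, had signals of 7.92 and 7.88 in PC3-SCR and of 4.76 and 5.01 in PC3-PDEF. It fell by 3.02 (standard error 0.107, adjusted p = 6.09e-06), an 8.08-fold lower level, and its PC3-PDEF signals were below the background gauge. COL14A1, which encodes the closely related chain of type XIV collagen, went the other way. Its signals were 4.48 and 4.51 in PC3-SCR, below the gauge, and 6.54 and 6.43 in PC3-PDEF, above it. It rose by 1.99 (standard error 0.086, adjusted p = 1.16e-05), a 3.97-fold higher level. COL16A1 fell by 0.36 (adjusted p = 0.0158), which passed the test in no fit without 1 array. COL22A1 fell by 0.35 (adjusted p = 0.0191), which passed it only in the fit without PC3-SCR replicate 1. COL9A3 and COL20A1, both above the gauge on every array, were not called (-0.16 with adjusted p = 0.162, or 0.035 after quantile normalization, and -0.115 with adjusted p = 0.398). COL9A1, COL9A2, COL19A1 and COL21A1 lay between -0.12 and 0.09.

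Transmembrane collagens also differed from each other. COL13A1, whose product takes part in cell adhesion and in the neuromuscular junction, had signals of 7.54 and 7.55 in PC3-SCR and of 5.89 and 6.15 in PC3-PDEF. It fell by 1.53 (standard error 0.108, adjusted p = 7.27e-05), a 2.88-fold lower level. COL25A1, which encodes a collagen first found in amyloid plaques, was higher in PC3-PDEF, with 5.32 and 5.18 against 4.30 and 4.52. It rose by 0.84 (standard error 0.108, adjusted p = 0.000911), although its signals were below the background gauge on every array, and without PC3-PDEF replicate 1 it did not pass the test. COL23A1, above the gauge on every array, was not called (-0.165, adjusted p = 0.175, or 0.0475 after quantile normalization). Of the other classes, COL7A1, which encodes the anchoring fibril of skin, fell by 0.29 (adjusted p = 0.0381), and this did not pass in any fit without 1 array. The hexagonal network genes COL8A1, COL8A2 and COL10A1, the multiplexin gene COL15A1 and COL26A1 had log2 fold changes between -0.16 and 0.155, and none of them passed the test.

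**Figure D3:**
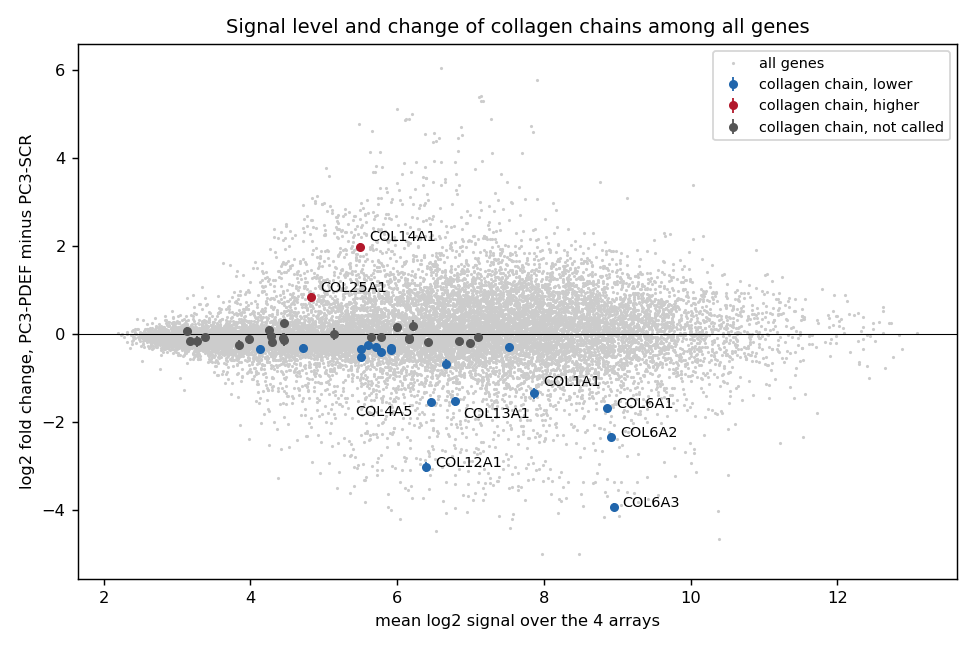
Log2 fold change between PC3-PDEF and PC3-SCR (vertical axis) against the mean log2 signal over the 4 arrays (horizontal axis) for all 18417 genes (light grey) and the 43 collagen chains, coloured by whether they were lower, higher or not called at an adjusted p under 0.05, with the standard error as a bar. The 7 chains that fell at least 2-fold reach from COL1A1 at -1.34 to COL6A3 at -3.92, and COL14A1 and COL25A1 lie on the higher side.

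Genes whose products modify, export, crosslink, bind or cut collagen were also mostly lower. Of 69 listed, 66 were measured, and among these 36 were lower (54.5%), 11 higher (16.7%) and 19 not called, beside 24.0% and 26.7% of all genes, with a median log2 fold change of -0.328. Without PC3-PDEF replicate 2, 7 were higher. In the endoplasmic reticulum, collagen chains are hydroxylated on proline and lysine and held by chaperones until the helix has formed. Of 17 such genes measured, 10 fell (58.8%) and 3 rose (17.6%), beside 24.0% and 26.7% of all genes. P4HA1, which encodes the catalytic subunit of the main prolyl 4-hydroxylase, had signals of 11.14 and 11.17 in PC3-SCR and of 9.39 and 9.46 in PC3-PDEF, and fell by 1.73 (adjusted p = 1.66e-05). PLOD1, a lysyl hydroxylase gene, fell by 1.46 (adjusted p = 3.08e-05), and the prolyl 3-hydroxylase gene P3H2 fell by 1.39 (adjusted p = 6.85e-05). SERPINH1, which encodes the collagen chaperone HSP47, had 8.15 and 8.31 against 8.59 and 8.39 and did not pass the test (log2 fold change 0.26, adjusted p = 0.0885, or 0.0293 with an intensity trend in the prior and 0.0375 among genes above the median level). Export of bulky procollagen needs enlarged COPII coats, and of 5 genes for it SEC24D (-0.90), SEC23A (-0.85) and MIA3 (-0.64) fell and 2 did not pass the test.

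Outside the cell the propeptides are trimmed and the fibrils crosslinked. Of 10 genes for propeptide removal, 3 rose and 3 fell, 30.0% each, which is near the shares of all genes (26.7% and 24.0%). ADAMTS2, which encodes the main procollagen N-proteinase, rose by 0.66 (adjusted p = 0.000731) and PCOLCE, an enhancer of C-propeptide removal, by 0.60 (adjusted p = 0.00154), while ADAMTS14 fell by 0.74 (adjusted p = 0.00322, and 0.0935 or 0.108 without 1 of the PC3-PDEF arrays). Of 6 crosslinking genes, 4 fell (66.7%) and 1 rose (16.7%), beside 24.0% and 26.7% of all genes. LOXL2, a lysyl oxidase gene, had signals of 11.15 and 11.01 in PC3-SCR and of 8.28 and 8.10 in PC3-PDEF, and fell by 2.89 (adjusted p = 6.05e-06). PXDN, which encodes the enzyme that forms the sulfilimine bonds of type IV collagen, fell by 0.84 (adjusted p = 0.000294), and LOXL3 rose by 0.94 (adjusted p = 0.00201, and 0.0908 or 0.0975 without 1 of the PC3-PDEF arrays).

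Basement membrane partners of type IV collagen changed in both directions. NID1 and NID2, the nidogen genes whose products join laminin to the type IV network, rose by 1.87 (adjusted p = 1.57e-05) and 2.15 (adjusted p = 0.000144). NID1 had 7.43 and 7.33 in PC3-SCR and 9.29 and 9.21 in PC3-PDEF. AGRN, the agrin gene, fell by 2.25 (adjusted p = 1.00e-05). In the list of 11 fibril and matrix partners measured, 6 fell (54.5%) and 2 rose (18.2%), beside 24.0% and 26.7% of all genes. FN1, the fibronectin gene, fell by 2.12 (adjusted p = 8.11e-06), from 9.85 and 9.79 to 7.68 and 7.72.

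Of 10 collagen receptor genes measured, 6 fell and 1 rose, beside 24.0% lower and 26.7% higher among all genes. ITGA2 and ITGB1 encode the α2 and β1 subunits of the main epithelial collagen receptor. ITGA2 had signals of 8.93 and 9.01 in PC3-SCR and of 6.58 and 6.65 in PC3-PDEF, and fell by 2.35 (adjusted p = 6.39e-06). ITGB1 fell by 2.14 (adjusted p = 9.76e-06). ADGRG1, an adhesion receptor gene whose product binds type III collagen, fell by 3.20 (adjusted p = 3.99e-06), to signals below the background gauge. DDR2, which encodes a receptor kinase for fibrillar collagen, rose by 1.09 (adjusted p = 0.000164), with signals below the gauge in PC3-SCR. The related DDR1 was not called (-0.06, adjusted p = 0.588). Of 7 genes of collagen-degrading proteases, 4 fell (57.1%) and 1 rose (14.3%), beside 24.0% and 26.7% of all genes. MMP14, the gene of a membrane-bound collagenase, had signals of 10.18 and 10.09 in PC3-SCR and of 6.30 and 6.38 in PC3-PDEF, and fell by 3.79 (adjusted p = 2.66e-06). MMP1, an interstitial collagenase gene, fell by 1.26 (adjusted p = 0.000543, and 0.0504 without PC3-SCR replicate 1). MMP2, the gelatinase A gene, rose by 1.35 (adjusted p = 3.85e-05). Of the pathway genes named, P3H2 and ADGRG1 were above the gauge only in PC3-SCR, ADAMTS2, LOXL3, NID2, DDR2 and MMP2 only in PC3-PDEF, and ADAMTS14 and MMP1 in neither group, so the sizes of their changes are not exact.

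**Figure D4:**
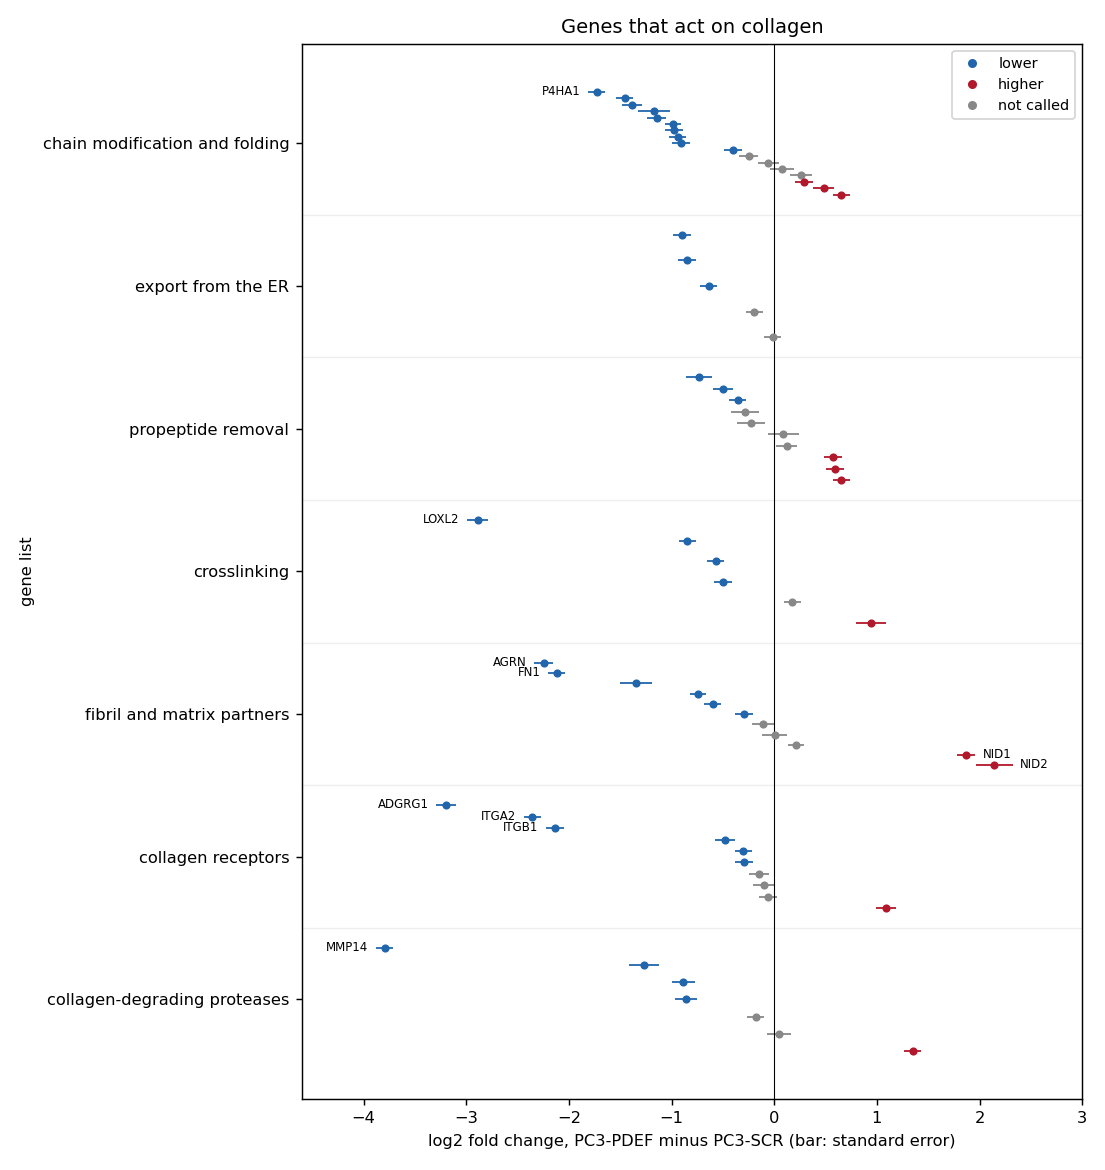
Log2 fold change between PC3-PDEF and PC3-SCR (horizontal axis) of 66 measured genes that act on collagen (vertical axis, by list), with the standard error as a bar, coloured by whether they were lower, higher or not called at an adjusted p under 0.05. The 36 genes called lower reach down to MMP14 at -3.79, and the 11 called higher reach up to NID2 at 2.15.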

How the data were processed

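Affymetrix human gene arrays of 2 PC3-SCR and 2 PC3-PDEF samples were compared. The authors deposited log2 signals of 33297 probe sets, made with Transcriptome Analysis Console per the labels. How this program was set, from its version to background correction and normalization, is not given in the sources used here. That the scale is log2 was judged from the span of the signals. Medians of the arrays were 5.41 to 5.46, and the signals were used as deposited. If the arrays were scaled to each other, a shift shared by all genes would not be seen. Probe sets with 1 gene symbol (19460) were kept, 1754 with several and 12083 unnamed here were not used, and symbols were updated through the GRCh38.p14 gene table, which held 99.8% of them.

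All 18417 genes were fitted without a filter on low signals by limma 3.58.1 under R 4.3.3 (lmFit and eBayes). Residual degrees of freedom were 2 and those of the prior 4.23, p-values were two-sided, and the Benjamini-Hochberg adjustment ran over all genes. The script was tested on simulated data. Alternatives were median centring, quantile normalization, a filter at the median level, the mean of probe sets, an intensity trend, a replicate block, leaving out each array and another background gauge. The members and gene lists were chosen with earlier results of these data known. The rule named chains called at least 2-fold, chains of type I, III, IV, V and VI, chains above the gauge on all arrays, the up to 3 called members of each pathway list with the largest change, and CTNNA1, STAT3 and SPDEF. Other chains are named to account for every member, and NID1, DDR2, DDR1, SERPINH1 and the markers given with values were picked after their values were seen. Where RefSeq listed several promoter windows for a gene, the outermost was used.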

Additional observations from a re-analysis of the deposited data

How the results depend on the processing

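The 7 chains that fell at least 2-fold and COL14A1 kept direction and call in every alternative that tested them, and so did COL1A2. The numbers of falling and rising chains, 18 and 2, were 18 and 2 after median centring, 21 and 3 after quantile normalization, 18 and 2 with the mean of a gene's probe sets, and 15 and 2 with an intensity trend in limma's prior. Among genes above the median level alone, 9 chains fell and 0 rose, 0 of them at least 2-fold upward, where 9 of the 20 called chains were tested, and 7 pathway genes rose, where 6 of the 11 called higher were tested. The replicate numbers of the labels did not pair the arrays (correlation of same-numbered arrays' deviations 0.0221 over genes), and with the replicate number as a block 13 chains fell and 2 rose, with COL2A1, COL4A2, COL5A2, COL5A3 and COL7A1 no longer called. Leaving out 1 array at a time gave 8 to 12 falling and 1 to 2 rising chains, 7 to 7 and 1 to 1 of them at least 2-fold, 26 to 31 falling and 7 to 10 rising pathway genes, and 2326 to 2856 falling and 3010 to 3635 rising genes in all. COL3A1, with a log2 fold change of 0.005, had -0.065 after median centring, -0.016 after quantile normalization, -0.205 to 0.215 with 1 array left out (-0.205 without PC3-SCR replicate 1 and -0.02 without PC3-PDEF replicate 1), and COL6A6 had 0.014 and COL28A1 0.02 after quantile normalization. With 1 array left out, other chains that were not called ranged across 0, COL28A1 from -0.235 to 0.155, COL9A1 from -0.305 to 0.065, COL15A1 from -0.175 to 0.025 and COL9A2 from -0.17 to 0.04. In fits without 1 array the lone array of a group is assumed to vary like the other group, and the causes were not tested. The number of arrays limits the precision of the small changes, and signals near background limit the fold changes of dim chains.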

Other observations

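COL11A2, which encodes a chain of type XI collagen, was the only collagen chain gene with several probe sets of a single symbol. The probe set used above had signals of 6.13 and 6.28 in PC3-SCR and of 6.15 and 6.10 in PC3-PDEF. The other probe sets, which held the same values as each other on every array, had 5.14 and 5.27 against 5.37 and 4.60. The groups overlapped for each of them.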
